A study of Bos taurus with 9 samples.

Results

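The 49 genes described here encode the machinery that copies DNA, from the proteins that mark and license replication origins to the helicase, the polymerases, the sliding clamp, the enzymes that join lagging strand fragments and the supply of deoxynucleotides. They are a list of textbook replication genes taken by symbol, and all 49 were found among the 21512 genes of the table. The rule uses no measured value, but the list was drawn up with earlier results of these data known. Each blastocyst gave 1 library, and values are in TPM, a unit scaled for transcript length that sums to 1000000 in every library. A TPM is a share of the sampled RNA, so in whole blastocysts fewer cells of a type and less RNA per cell cannot be told apart.

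The samples were D8 bovine blastocysts made *in vitro*, 5 of them WT (WT_1 to WT_5) and 4 of them *TEAD4* KO (TE_1 to TE_4), where D counts days after fertilization. Where the values of single blastocysts are listed, they follow the order of these numbers. TEAD4 is a DNA-binding partner of the Hippo pathway coactivators. All of them came from slaughterhouse oocytes and semen of the same bull and all had been injected with *Cas9* mRNA, the WT group with it alone and the KO group together with a guide RNA against *TEAD4*. KO blastocysts were those whose sequenced alleles all carried indels that disrupt the reading frame, and since indels form separately in each embryo they are not a line. The sex of the blastocysts and the batches of injection or library preparation are not given in the sources used here.

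DNA replication begins when the origin recognition complex (ORC) binds chromatin and, with CDC6 and CDT1, loads the MCM2-7 ring as an inactive double hexamer. Kinases, CDC45 and the GINS complex then turn the ring into the active helicase, after which the primase and the replicative polymerases copy the strands. Many of these genes are transcribed around the G1 to S transition.

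The *TEAD4* transcript itself spanned 18.04 to 54.3 TPM in WT and 12.5 to 42.8 TPM in KO blastocysts (log2 fold change −0.51, SE 0.42, adjusted p = 0.947, limma), and as small indels may leave an mRNA in place it does not check the genotype. All 7 trophectoderm, 3 epiblast and 3 hypoblast markers looked up were above 0 in all 9 libraries. Their sums ranged from 4019 to 17926 TPM in WT and 6586 to 12382 TPM in KO for trophectoderm, 777 to 2045 and 1358 to 2166 TPM for epiblast, and 81.5 to 133 and 35.8 to 148 TPM for hypoblast. Most of each sum came from *KRT8* and *KRT18*, from *POU5F1* and from *GATA6*. *CDX2* was at 17.1 to 44.7 TPM in WT and 17.9 to 55.2 TPM in KO, and *TFAP2C* at 75.6 to 157 and 64.4 to 214 TPM. *GATA2* was at 34.6 to 89.9 and 23.7 to 97.6 TPM, and *GATA3* at 14.4 to 40.2 and 11.4 to 52.9 TPM. *TFAP2A* was at 2.85 to 12.6 and 0.321 to 5.21 TPM. TE_4 was the lowest library for *GATA2*, *GATA3* and *TFAP2A*, but not for *CDX2* and *TFAP2C*. *POU5F1* was at 773 to 1693 TPM in WT and 1352 to 2142 TPM in KO. The paper states that the mutual exclusion of POU5F1 and CDX2 seen in mice does not hold in bovine embryos. The epiblast sum thus need not track the epiblast. *SOX2* was at 3.89 to 90.4 TPM in WT and 2.26 to 42.4 TPM in KO. The epiblast marker *NANOG* was at 0.127 to 262 TPM in WT, near 0 in WT_1, and at 2.70 to 53.3 TPM in KO. For hypoblast, *GATA6* was at 77.6 to 93.6 TPM in WT and 29.3 to 146 TPM in KO, and *SOX17* at 2.52 to 38.1 and 1.91 to 11.5 TPM. *GATA4* was at 1.09 to 1.75 TPM in WT and lower in every KO blastocyst, at 0.367 to 0.957 TPM (adjusted p = 0.684, limma). The genotypes did not overlap for 2.03% of all genes tested. Summed cumulus cell markers ranged from 139 to 239.6 TPM in WT and from 12.98 to 258 TPM in KO, with 4 of 9 above 0 in every library. Of these, *HSD3B1* alone was at 105 to 220 TPM in WT and 8.32 to 227 TPM in KO. *FSHR* was at 12.1 to 26.8 TPM in WT and 1.36 to 23.3 TPM in KO. *STAR* was at 4.48 to 11.7 and 1.62 to 6.603 TPM, and *CYP19A1* at 0.319 to 1.57 and 0.503 to 3.05 TPM. *TNFAIP6* and *AMH* reached at most 2.08 and 2.27 TPM in any library. *HAS2*, *PTX3* and *INHBA* reached at most 0.520, 0.370 and 0.386 TPM in any library. Summed oocyte transcripts ranged from 32.7 to 68.8 TPM in WT and from 22.6 to 109 TPM in KO (2 of 8 above 0 in every library). Summed sperm transcripts ranged from 1.66 to 121 and from 0.779 to 74.8 TPM (0 of 4, with *ODF1* at 0 throughout). The part of these transcripts in the results was not tested. TPM does not hold the depth of a library.

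All 49 genes were above 0 TPM in all 9 libraries and 48 were above 1 TPM in each of them, *POLE* being the exception. Levels ran from 0.439 TPM (*POLE* in TE_3) to 751 TPM (*RPA3* in WT_4), and all 49 passed the filter on low values (a median above 0.1 TPM across libraries) that left 14599 genes for testing. KO and WT blastocysts were compared with limma on log2(TPM + 1), and fold changes below are on that scale, KO minus WT, which understates the change of low genes such as *POLE*. A gene was called where the Benjamini-Hochberg adjusted p was under 0.05 and the fold change exceeded 1 log2 unit in size. By that rule 0 of the 49 replication genes were called, against 0.0205% of all genes tested (3 genes). The number with an unadjusted p under 0.05 was also 0 (limma), against 5.9% of all genes tested, and the values of the 2 genotypes overlapped for each of the 49, while they did not overlap for 2.03% of all genes tested. By means of log2(TPM + 1), 19 genes were higher in KO (44.2% of all genes tested were higher in KO) and 30 were lower. With means of TPM itself, to which high values add more, the split turned to 31 higher and 18 lower (48.5% of all genes tested were higher). On the log2 scale the 19 became 32 without TE_1, 36 without TE_3 and 12 without TE_4. The median log2 fold change was −0.074 over the 49 genes and −0.046 over all genes tested, and that of the 49 was 0.12 without TE_1, 0.11 without TE_3 and −0.28 without TE_4. The 95% interval of the fold change lay within 1 log2 unit of 0 for 36 genes, 73.5% of them, against 56.8% of all genes tested. For the other 13 (*ORC3*, *ORC5*, *CDC6*, *MCM3*, *MCM10*, *GINS1*, *RFC1*, *POLA2*, *PRIM1*, *PRIM2*, *POLD3*, *POLE2* and *RPA1*) a change beyond 1 log2 unit lies within the interval. Each interval uses the same variance for both genotypes, while the SD was larger in KO for 45 of the 49 genes. Such intervals can be too narrow, and the count of 36 can be too high. Adjusted p-values of the 49 genes ranged from 0.897 to 0.998 (limma). They set the difference between genotypes against the spread within genotypes of these blastocysts only.

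**Figure D1:**
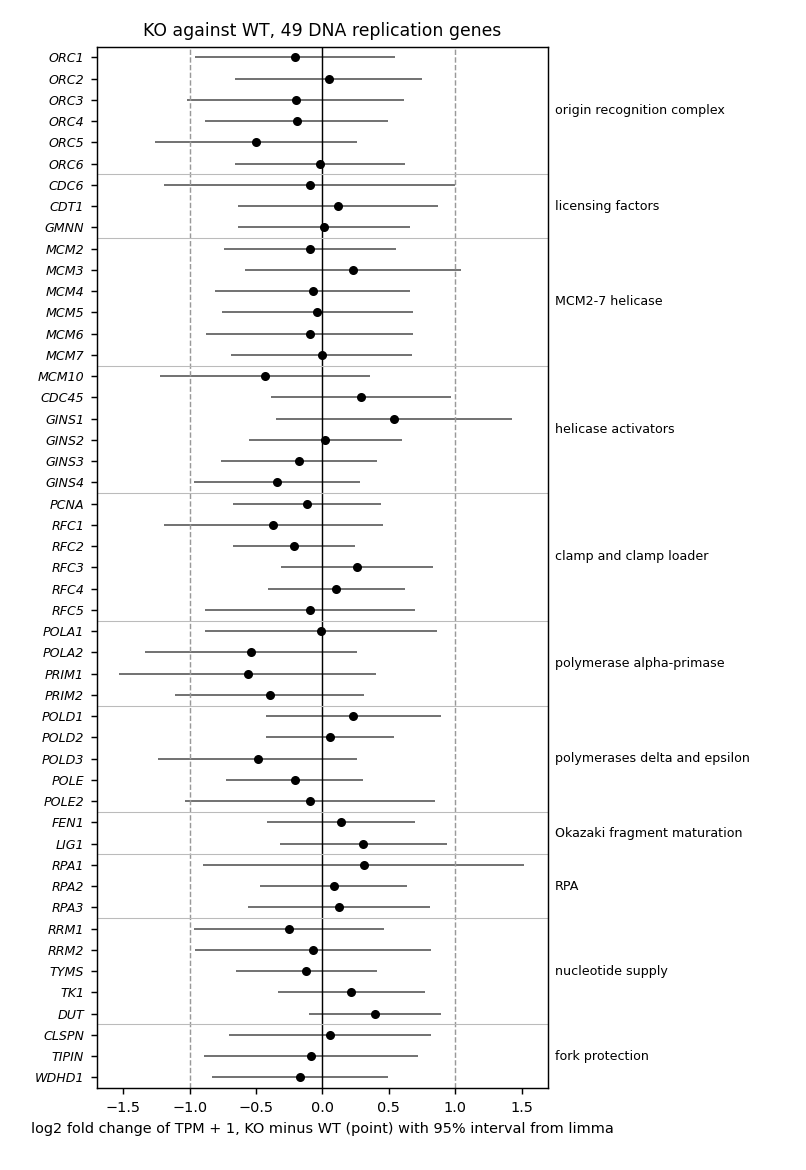
Log2 fold changes of TPM + 1 (x axis, KO minus WT; points) with 95% intervals from limma (bars) for the 49 replication genes, ordered by sub-complex on the y axis, from 5 WT and 4 KO blastocysts. The points run from −0.56 (*PRIM1*) to 0.54 (*GINS1*) and every interval crosses 0.

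In ORC, the 6-subunit complex that marks origins, the median log2 fold change was −0.20, with 1 of 6 subunits higher in KO by the mean of log2(TPM + 1) and 3 of 6 by the mean of TPM. Its sign rested on single blastocysts, since it was 0.010 without TE_1, 0.072 without TE_3 and −0.41 without TE_4, and with array weights it was 0.0015. *ORC6*, the subunit with the highest level in 8 of 9 libraries, was at 67.9, 63.3, 106, 102 and 61.7 TPM in WT and at 51.5, 89.7, 62.7 and 120.2 TPM in KO. The highest value was in TE_4 and the lowest in TE_1, and the difference between the means was small beside its SE (log2 fold change −0.019, SE 0.29). *ORC5*, an ATPase-fold subunit of the ring, was at 18.8, 13.2, 18.01, 13.2 and 9.86 TPM in WT and at 4.68, 12.7, 10.2 and 14.4 TPM in KO. Its 2 highest values were WT and its lowest TE_1, and the difference between genotypes had an interval that reaches 0 (log2 fold change −0.50, SE 0.35, 95% interval −1.26 to 0.26). *ORC2* was the lowest subunit in 9 of 9 libraries, at 3.13 to 7.16 TPM, and *ORC6* exceeded it 10.1 to 32.03 times.

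Among the licensing factors, *GMNN* encodes geminin, which binds CDT1 and blocks reloading of MCM2-7 within the same cell cycle. It was at 272, 232, 439, 517 and 318 TPM in WT and at 233, 342, 326 and 529 TPM in KO. TE_4 was highest, WT_2 and TE_1 lowest, and the genotypes were interleaved (log2 fold change 0.010, SE 0.30). *CDT1*, the loader that geminin restrains, was at 8.04, 10.1, 14.1, 9.90 and 12.8 TPM in WT and at 8.19, 21.4, 7.51 and 14.3 TPM in KO. TE_2 was well above every WT blastocyst and TE_4 just above the highest of them, WT_3 (log2 fold change 0.12, SE 0.35). In TPM, *GMNN* was 15.97 to 52.3 times as high as *CDT1*, lowest in TE_2 and highest in WT_4. *CDC6*, the ATPase that recruits MCM2-7 with CDT1, had the widest spread of this group, at 11.7, 6.66, 8.88, 9.96 and 8.94 TPM in WT and at 5.05, 14.3, 2.54 and 23.2 TPM in KO. All 5 WT values lay between those of TE_1 and TE_3 on the low side and TE_2 and TE_4 on the high side (log2 fold change −0.10, SE 0.50, 95% interval −1.19 to 1.00).

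The subunits of the MCM2-7 helicase, which unwinds the parental strands, showed this arrangement too. *MCM2* was at 57.3, 40.5, 47.7, 48.4 and 42.9 TPM in WT and at 29.5, 74.3, 30.2 and 56.02 TPM in KO. *MCM3* was at 24.7, 26.2, 27.1, 21.8 and 23.8 TPM in WT and at 17.4, 43.9, 15.8 and 58.4 TPM in KO. *MCM7* was at 102, 109, 117, 91.8 and 109.9 TPM in WT and at 65.5, 136, 69.8 and 196 TPM in KO. In each of these subunits the WT blastocysts sat in a narrow band, TE_1 and TE_3 below it and TE_2 above it, and TE_4 was above it for *MCM3* and *MCM7* but inside it for *MCM2*. *MCM4*, *MCM5* and *MCM6* spanned 43.6 to 49.2, 68.3 to 90.1 and 78.9 to 118 TPM in WT, and 20.5 to 77.6, 37.5 to 131 and 48.5 to 162 TPM in KO. Of the 24 MCM2-7 values in KO blastocysts, 23 fell outside the range of the 5 WT blastocysts, the exception being *MCM2* in TE_4. Shares of all genes tested that lay outside the WT range on the same side were 38.5% below in TE_1, 32.9% above in TE_2, 25.7% below in TE_3 and 23.4% above in TE_4.

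The KO values lay on both sides of the WT band, and the log2 fold changes were small beside their SEs, at −0.094 for *MCM2* (SE 0.30), 0.23 for *MCM3* (SE 0.37) and −0.0057 for *MCM7* (SE 0.31). The sum over the 6 subunits was 412, 376, 414, 395 and 389 TPM in WT_1 to WT_5, a mean of 397 ± 16.1 (SD, n = 5). In TE_1 to TE_4 it was 263, 585, 228 and 653 TPM, 432 ± 218 (SD, n = 4). Divided by median-of-ratios size factors, the sums were 388, 386, 369, 395 and 371 in WT and 339, 463, 236 and 621 in KO, and TE_1 and TE_3 stayed below and TE_2 and TE_4 above every WT sum. After that scaling single subunits were less one-sided in TE_1, where 3 of 6 were below and 1 above every WT value, while 4 were above in TE_2, 6 below in TE_3 and 5 above in TE_4. The order of the subunits within a library varied less than their level: *MCM7* was highest in 7 libraries and *MCM6* in 2, *MCM3* was lowest in 8 and *MCM2* in 1, and the highest subunit exceeded the lowest 3.50 to 5.44 times.

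**Figure D2:**
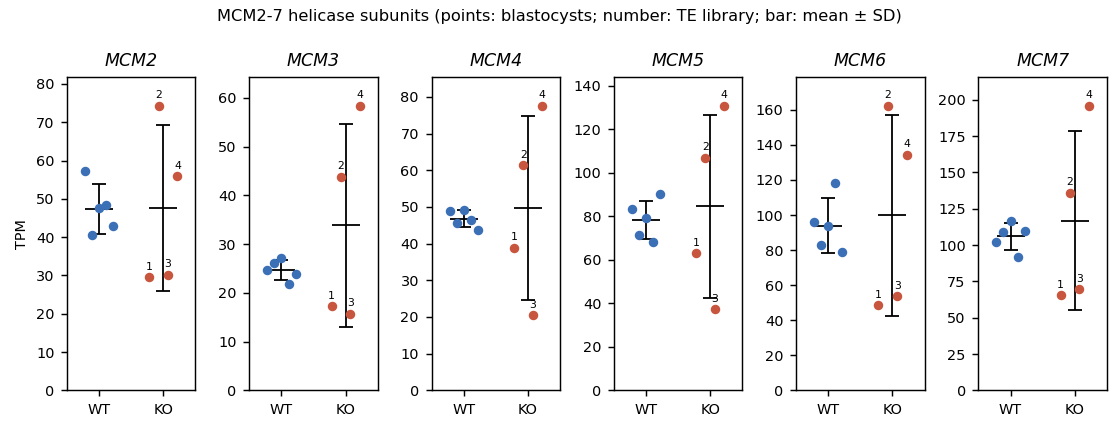
TPM (y axis, from 0) of each MCM2-7 subunit in 5 WT and 4 KO blastocysts, where points are blastocysts, digits give the TE number and bars show mean ± SD. For *MCM7* the WT points lie between 91.8 and 117 TPM, TE_1 and TE_3 at 65.5 and 69.8 below them and TE_2 and TE_4 at 136 and 196 above them.

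Helicase activators differed among themselves. *GINS1*, a subunit of the GINS complex that joins CDC45 and MCM2-7, was at 49.3, 84.6, 197, 162 and 69.2 TPM in WT and at 137, 124, 103 and 243 TPM in KO. It had the highest positive fold change of the 49 genes, yet its WT values alone differed 3.997-fold, with WT_1 lowest and TE_4 highest (log2 fold change 0.54, SE 0.41, 95% interval −0.35 to 1.43). *GINS4*, another GINS subunit, was at 7.90, 12.7, 13.3, 13.003 and 11.5 TPM in WT and at 8.91, 12.3, 7.38 and 7.50 TPM in KO. Here WT_1, TE_3 and TE_4 were lowest and close together, and this was the member for which TE_4 lay below every WT blastocyst (log2 fold change −0.34, SE 0.29). *GINS2* ranged over 78.2 to 203 TPM and exceeded *GINS4* 9.61 to 27.1 times, the highest ratio being in TE_4. *CDC45* was at 10.7 to 33.5 TPM with its highest value in TE_2, and *MCM10*, which helps to activate the helicase, was at 9.03 to 32.2 TPM with its lowest in TE_1 (log2 fold change −0.43, SE 0.36).

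*PCNA*, the sliding clamp that tethers the polymerases and a usual marker of proliferating cells, was at 152, 151, 212, 269 and 209 TPM in WT and at 167, 205, 125 and 241 TPM in KO. WT_4 was highest and TE_3 lowest, and the genotypes overlapped along most of their range (log2 fold change −0.11, SE 0.26). RFC opens the clamp and loads it on DNA, and its large subunit *RFC1* was at 12.8, 19.6, 12.8, 15.6 and 34.9 TPM in WT and at 7.93, 23.7, 11.5 and 15.2 TPM in KO. It was the lowest of the 6 genes in 9 of 9 libraries, and WT_5 and TE_1 marked its extremes (log2 fold change −0.37, SE 0.38, 95% interval −1.20 to 0.46). *RFC2*, with a small spread, was at 76.5, 82.7, 62.4, 68.3 and 75.99 TPM in WT and at 59.5, 67.7, 49.4 and 76.7 TPM in KO. TE_1 and TE_3 were its 2 lowest values (log2 fold change −0.22, SE 0.21).

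Polymerase alpha-primase lays the RNA-DNA primers with which each fragment starts, and it had the lowest median of the 11 sub-complexes (−0.47), with 4 of 4 subunits lower in KO by the mean of log2(TPM + 1) and 3 of 4 by the mean of TPM, *POLA1* being the exception. The median was −0.23 without TE_1 and −0.16 without TE_3. *PRIM1*, the catalytic primase subunit, was at 9.68, 12.6, 10.7, 16.3 and 12.4 TPM in WT and at 4.67, 15.9, 3.03 and 15.3 TPM in KO. Its lowest values were TE_3 and TE_1, whereas TE_2 and TE_4 lay between WT_4, the highest, and the other WT blastocysts (log2 fold change −0.56, SE 0.44, 95% interval −1.53 to 0.40). *PRIM2*, the large primase subunit and the highest of the 4 in 9 of 9 libraries, was at 39.4, 21.99, 33.1, 34.3 and 26.99 TPM in WT and at 18.1, 33.7, 13.04 and 34.5 TPM in KO. TE_3 and TE_1 were again lowest (log2 fold change −0.40, SE 0.33, 95% interval −1.11 to 0.31). Without TE_3 the log2 fold change was −0.18 for *PRIM1* and −0.14 for *PRIM2*. *POLA2*, the regulatory subunit, was also low in these 2 blastocysts, with 5.46 TPM in TE_1 and 12.2 in TE_3 against 19.4 in TE_4 and 21.1 in TE_2, and WT at 17.2 to 26.7 TPM (log2 fold change −0.54, SE 0.37, or −0.17 without TE_1). The catalytic *POLA1* was at 1.80 to 9.09 TPM, with a difference between means that was small beside its SE (log2 fold change −0.0088, SE 0.40). The 95% interval of each subunit included 0, and the difference between sub-complexes was not tested.

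Polymerase delta copies the lagging strand and polymerase epsilon the leading strand. *POLD2*, an accessory subunit of delta with a small spread, was at 42.9, 50.9, 52.8, 45.8 and 51.5 TPM in WT and at 39.999, 61.9, 44.3 and 59.8 TPM in KO. TE_2 and TE_4 were highest and TE_1 lowest (log2 fold change 0.057, SE 0.22). *POLD3*, another delta subunit, was at 12.98, 12.1, 14.3, 15.4 and 11.8 TPM in WT and at 5.38, 11.8, 6.21 and 17.2 TPM in KO. TE_1 and TE_3 lay below every WT blastocyst and TE_4 above (log2 fold change −0.49, SE 0.34, 95% interval −1.23 to 0.26). The catalytic *POLE* had the lowest level of the 49 genes, 0.439 to 1.86 TPM, and its partner *POLE2* was 9.96 to 22.8 times as high, at 6.50 to 31.3 TPM. TPM does not hold the number of reads behind such low values.

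On the lagging strand FEN1 trims the flaps of Okazaki fragments and LIG1 seals the nicks. *FEN1* was at 92.2, 80.9, 100.3, 86.3 and 76.3 TPM in WT and at 67.97, 124, 72.1 and 138 TPM in KO. *LIG1* was at 84.95, 67.2, 79.8, 61.2 and 87.3 TPM in WT and at 63.9, 146, 64.5 and 126.5 TPM in KO. TE_2 and TE_4 exceeded every WT blastocyst in both genes, TE_1 and TE_3 lay below the WT range for *FEN1* and within it for *LIG1*, and the log2 fold changes were 0.14 (SE 0.26) and 0.31 (SE 0.29).

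RPA coats exposed single-stranded DNA. *RPA3*, its smallest subunit and the highest of the 3 in 9 of 9 libraries, was at 255, 320.3, 429, 751 and 348 TPM in WT and at 575, 405, 292 and 491 TPM in KO. WT_4 and TE_1 were highest, so that TE_1, low for most of the 49 genes, was high here (log2 fold change 0.13, SE 0.31). *RPA1*, the large subunit, was at 165, 41.1, 30.8, 20.9 and 24.6 TPM in WT and at 25.1, 64.2, 45.6 and 87.98 TPM in KO. WT_1 stood apart at 165 TPM from the other WT blastocysts, and the fold change moved from 0.31 (SE 0.56) to 0.81 without it, still uncalled. *RPA2* exceeded *RPA1* 1.04 to 11.3 times and was at 135 to 256 TPM.

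Nucleotide supply held the gene with the smallest p of the 49. *DUT* encodes the dUTPase that keeps uracil out of DNA, and it was at 369, 308, 285, 478 and 416 TPM in WT and at 620.5, 427, 528 and 378 TPM in KO. TE_1 and TE_3, the blastocysts that were low for MCM2-7, gave the 2 highest values, and TE_2 and TE_4 fell within the WT range (unadjusted p = 0.110, adjusted p = 0.897, limma; log2 fold change 0.39, SE 0.23, 95% interval −0.10 to 0.89). *RRM2* encodes a small subunit of ribonucleotide reductase. It was at 109, 226, 188, 204 and 173 TPM in WT and at 68.3, 262, 135 and 318 TPM in KO. TE_1 was lowest and TE_4 highest, and WT_1 was the lowest of its group (log2 fold change −0.068, SE 0.41, 95% interval −0.96 to 0.82). *RRM1*, the large subunit, was lower than *RRM2* in every library, 18.6 to 54.99 TPM, with a ratio of *RRM2* to *RRM1* of 2.22 to 7.29. *TYMS*, thymidylate synthase, and *TK1*, thymidine kinase, spanned 132 to 282 TPM and 72.8 to 148 TPM, each with its highest value in TE_4.

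Claspin, TIPIN and WDHD1 protect and couple the moving fork. *TIPIN*, the highest of the 3 in 9 of 9 libraries, was at 38.5, 30.3, 41.8, 52.5 and 25.5 TPM in WT and at 18.4, 42.8, 25.6 and 68.9 TPM in KO. TE_4 was highest and TE_1 lowest (log2 fold change −0.085, SE 0.37). *WDHD1*, which links polymerase alpha to the helicase, was at 9.68, 6.16, 7.47, 7.82 and 7.04 TPM in WT and at 4.90, 8.81, 4.83 and 8.98 TPM in KO. TE_1 and TE_3 lay below every WT blastocyst, and TE_2 and TE_4 within the WT range (log2 fold change −0.17, SE 0.31). *CLSPN* was at 3.01 to 7.997 TPM.

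The spread between blastocysts was larger in KO than in WT for most of the 49 genes. The SD of log2(TPM + 1) over the 4 KO blastocysts exceeded that over the 5 WT blastocysts for 45 of them, against 70.1% of all genes tested, and the exceptions were *GINS1*, *RFC4*, *RPA1* and *RPA3*. Median SDs were 0.27 in WT and 0.62 in KO over the 49 genes, and 0.35 and 0.52 over all genes tested. For MCM2-7 they were 0.15 and 0.81. With values divided by size factors the count fell to 39 genes (79.6%, against 67.3% of all genes tested), and after quantile normalization to 37 (75.5% against 65.8%), nearer to the background. Leaving out any single blastocyst gave 41 to 44 genes. The 49 genes share the same libraries and are not independent of each other, and with 4 and 5 blastocysts no test of the spread was made.

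**Figure D3:**
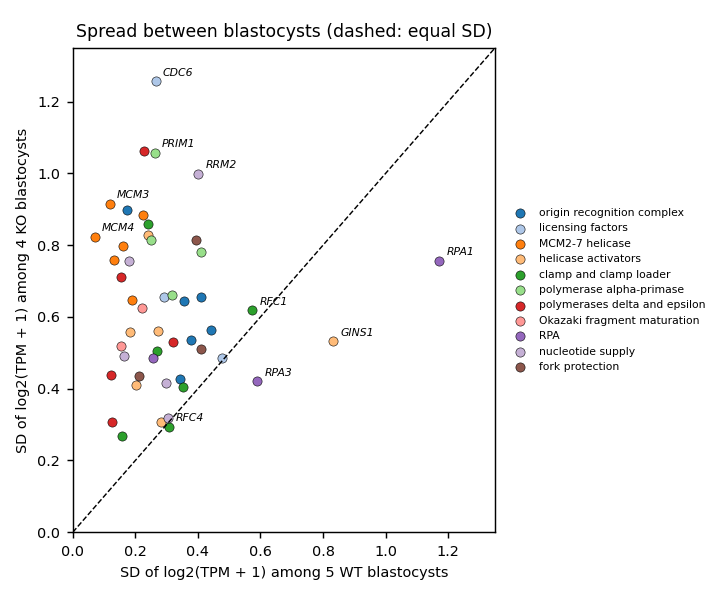
SD of log2(TPM + 1) among 5 WT blastocysts (x axis) against that among 4 KO blastocysts (y axis), where each point is a replication gene coloured by sub-complex and the dashed line marks equal SDs. Of the 49 points, 45 lie above the line.

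Each KO blastocyst was mostly high or mostly low across the sub-complexes. Each gene was expressed as its deviation from its mean over the 9 libraries in log2(TPM + 1). The median deviation of the 49 genes was −0.51, 0.32, −0.45 and 0.56 in TE_1 to TE_4, and among the WT blastocysts it ran from −0.12 to 0.15. All genes tested had medians of −0.28, 0.22, −0.061 and 0.0042 in TE_1 to TE_4, so TE_1 and TE_2 also deviated as whole libraries. The 8077 genes with a mean of at least 5 TPM lay at a level nearer to that of the 49 genes. Their medians were −0.35, 0.31, −0.11 and 0.10 in TE_1 to TE_4. In TE_2 the 49 genes thus lay close to these genes, while in TE_3 and TE_4 they deviated further in the same direction. TE_1 was below every WT blastocyst for 31 of the 49 genes (38.5% of all genes tested) and TE_3 for 30 (25.7%). TE_2 was above every WT blastocyst for 22 (32.9%) and TE_4 for 28 (23.4%). Among the 8077 genes with a mean of at least 5 TPM these shares were 42.3%, 29.4%, 37.02% and 28.7%.

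Scaling changed TE_1 and TE_2 more than TE_3 and TE_4. Median-of-ratios size factors were 0.776, 1.26, 0.966 and 1.05 in TE_1 to TE_4 and 0.973 to 1.12 in WT. Divided by them, the 49 genes had median deviations of −0.17, 0.032, −0.37 and 0.52, and after quantile normalization of −0.12, 0.020, −0.37 and 0.45. Under the size factors TE_1 was below every WT blastocyst for 19 genes (24.5% of all genes tested), TE_3 for 24 (22.1%), and TE_2 and TE_4 were above for 12 (19.5%) and 28 (22.98%). The deviation of TE_2 thus came close to that of all genes under both scalings, while those of TE_3 and TE_4 changed little.

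**Figure D4:**
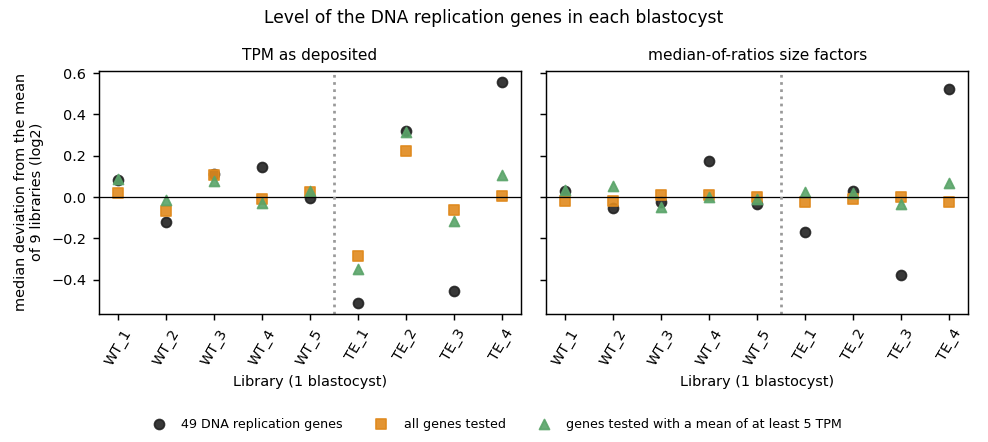
Median deviation from the mean of 9 libraries in log2(TPM + 1) (y axis) of the replication genes in each blastocyst (x axis), with TPM as deposited and with values divided by size factors in separate panels. As deposited, TE_1 and TE_3 lie at −0.51 and −0.45 and TE_2 and TE_4 at 0.32 and 0.56, and after scaling TE_2 lies near 0.

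By sub-complex, the mean deviation was lowest in TE_1 for 7 of the 11, in TE_3 for 3 (licensing factors, MCM2-7 and helicase activators) and in WT_5 for RPA. It was highest in TE_4 for 9 and in TE_2 for polymerase alpha-primase and Okazaki fragment maturation. With TPM as deposited, the range between blastocysts was larger in KO than in WT for all 11 sub-complexes. For single genes, the SD was larger in KO for 70.1% of all genes tested. For MCM2-7 the mean deviations were −0.54, 0.58, −0.79 and 0.73 in TE_1 to TE_4, against −0.062 to 0.079 among the WT blastocysts. For polymerase alpha-primase they were −0.97, 0.55, −0.76 and 0.35 in TE_1 to TE_4, against −0.10 to 0.37 among the WT blastocysts. RPA was the sub-complex nearest to equal ranges, 0.75 in WT and 0.87 in KO. After quantile normalization its range was smaller in KO, with mean deviations from −0.38 to 0.35 in WT and from −0.20 to 0.44 in KO. With TPM as deposited the mean deviation was below every WT blastocyst for 9 of the 11 sub-complexes in TE_1 and 10 in TE_3, and above every WT blastocyst for 9 in TE_2 and 10 in TE_4. With size factors these counts were 5, 9, 2 and 10, and TE_1 was above every WT blastocyst for Okazaki fragment maturation, so the low placing of TE_1 and the high placing of TE_2 depended on the scaling. The helicase activators in TE_1 went from −0.19 to 0.18, where 4 of the 6 were above every WT value.

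**Figure D5:**
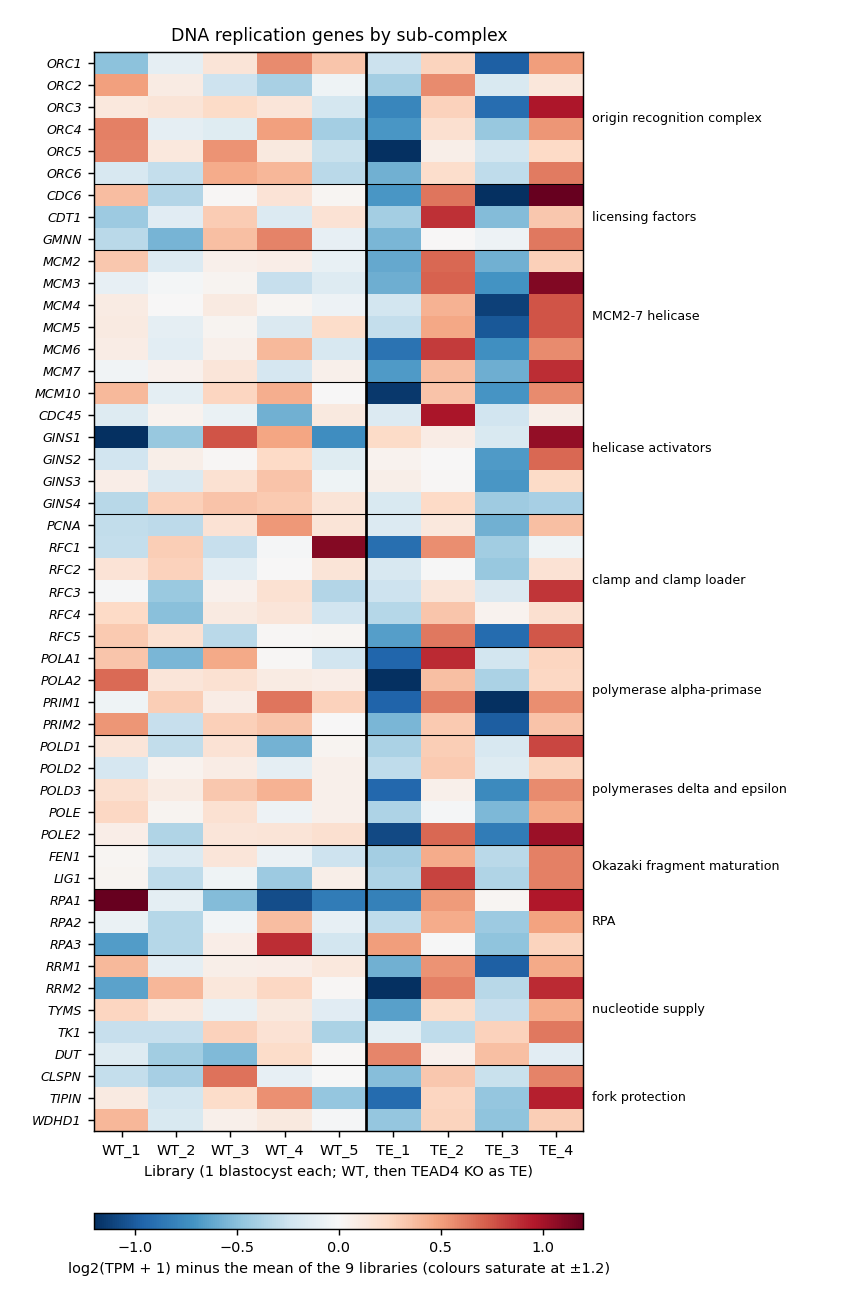
Deviation of log2(TPM + 1) from the mean of 9 libraries (colour, red above and blue below) for the 49 replication genes (rows, by sub-complex) in 9 blastocysts (columns). TE_1 and TE_3 are mostly blue and TE_2 and TE_4 mostly red, with *DUT* red in TE_1 and TE_3, and the WT columns are paler on the whole.

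The clustered histone genes, whose products package newly made DNA, are given beside the replication genes. Their sum over 44 histone genes was 311 to 506 TPM in WT and 1456, 4721, 1337 and 3516 TPM in TE_1 to TE_4, lower in TE_1 and TE_3 than in TE_2 and TE_4, yet above every WT blastocyst in all 4. The 49 replication genes together took 3250.4 to 4648 TPM in WT and 3322, 4451, 3057 and 5356 TPM in TE_1 to TE_4, with only TE_3 below and only TE_4 above the WT range. Whether the histone sums bear on the replication genes was not tested.

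A second list of 45 replication genes outside the 49, among them the kinase *CDC7* with *DBF4*, ribonuclease H2, further polymerase subunits and topoisomerases, is set beside them. Of these 0 were called (0.0205% of all genes tested), 2 had an unadjusted p under 0.05 (limma; 5.9% of all genes tested), 16 had a higher and 29 a lower mean of log2(TPM + 1) in KO (44.2% of all genes tested were higher; by means of TPM 23 and 22), and the median log2 fold change was −0.055. The SD was larger in KO for 37 of the 45 (70.1% of all genes tested). In this list TE_1 was below every WT blastocyst for 29 genes (38.5% of all genes tested) and TE_3 for 23 (25.7%), and TE_2 and TE_4 were above for 25 (32.9%) and 22 (23.4%), while TE_4 was also below for 9 (22.1%). With size factors the counts were 17 (24.5%) in TE_1, 20 (22.1%) in TE_3, 14 (19.5%) in TE_2 and 22 (22.98%) in TE_4. The genotypes did not overlap for 3 of the 45 genes, against 2.03% of all genes tested. *RNASEH2A*, the catalytic subunit of ribonuclease H2, which removes ribonucleotides from DNA, was at 48.6, 55.5, 66.3, 52.1 and 51.2 TPM in WT and at 66.5, 70.6, 82.1 and 80.1 TPM in KO. KO values were all higher, by a small margin at TE_1 (log2 fold change 0.45, SE 0.20, 95% interval 0.010 to 0.88, adjusted p = 0.836, limma). *RNASEH2B*, another subunit of the same enzyme, was at 24.04, 14.005, 14.7, 18.5 and 16.2 TPM in WT and at 6.61, 12.9, 11.8 and 6.54 TPM in KO. KO values were all lower (log2 fold change −0.85, SE 0.31, 95% interval −1.52 to −0.19, adjusted p = 0.718, limma). *DONSON*, which helps CDC45 and GINS to join MCM2-7, was at 16.2, 10.3, 10.2, 10.5 and 10.2 TPM in WT and at 7.58, 7.82, 7.63 and 10.1 TPM in KO, with the highest KO value just under the lowest WT value (log2 fold change −0.41, SE 0.27, 95% interval −1.01 to 0.18, adjusted p = 0.920, limma). The 3 genes are named here because their groups do not overlap. Groups without overlap always give p = 0.0159 in an exact permutation test (two-sided), the smallest that 5 against 4 blastocysts allow. That p was thus fixed by the choice of the genes and adds nothing to it.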

How the data were processed

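The authors sequenced 5 WT and 4 *TEAD4* KO blastocysts at D8, each as its own library. The deposited table holds TPM per gene, which the authors obtained after read trimming and pseudoalignment (FastQC, fastp and kallisto are named in the submitters' processing notes), and it gives no counts. The annotation and the use of strand in counting are not given in the sources used here, and the labels and the paper name different library kits. The label of each column gives the genotype but not which deposited sample it is, and every column of values was used. TPM does not hold the depth of each library, so a count test could not be run and counting error could not be put on the values.

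The 49 genes, their 11 sub-complexes, 45 further replication genes and marker lists were chosen by hand with earlier results of these data known. All 49 symbols occur in the RefSeq table of ARS-UCD2.0, where 8 overlap another protein-coding gene (*RFC4* with *EIF4A2*, *RPA2* with *THEMIS2*, *RPA3* with *UMAD1*, *GINS1* with *PCMTD2*, *RFC5* with *KSR2*, *CDT1* with *APRT*, *TYMS* with *ENOSF1* and *FEN1* with *TMEM258*), and reads of such pairs may not be told apart. Coordinates are left out, as the build behind the table is not given in the sources used here.

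Genes with a median above 0.1 TPM were fitted with limma 3.58.1 in R 4.3.3 (lmFit, eBayes with trend) on log2(TPM + 1). Genotype was the only term, and Benjamini-Hochberg adjustment was over all 14599 genes. The procedure was tested on simulated data, drawn with independent genes and the same SD in both genotypes. That test therefore does not cover the shared shifts of libraries or the larger SDs in KO. Python 3.11.15 was used for SDs, ranges and exact permutation tests (pandas 2.3.3, numpy 2.4.6 and scipy 1.17.1) and for plots (matplotlib 3.10.9). The genes given with all their values were any with an unadjusted p under 0.05 or without overlap between genotypes (0 of the 49; the same rule names genes of the second list) and, in each sub-complex, that with the highest mean and that with the largest absolute fold change, then the 3 with the smallest and the 3 with the largest spread within genotypes among those with a mean of at least 5 TPM, and the usual markers *PCNA*, *MCM2* and *RRM2*. The fit was repeated without each blastocyst, with a smaller pseudocount (0.1 TPM), with medians above 1 TPM or no filter, after scaling by median-of-ratios size factors or by quantiles, and with array weights, robust eBayes or no trend. Counts of genes outside the WT range under other scalings, and of SDs after quantile normalization or without single blastocysts, were added after seeing the data, as were means of TPM without the log.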

Additional observations from a re-analysis of the deposited data

Results flagged for a closer look

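Within each genotype, the highest or lowest blastocyst of every gene of the 49 and of the 3 non-overlapping genes of the second list was compared with the others by Dixon's criterion at 95%. Of 104 such groups 6 passed, where chance gives about 5%. *ORC3* was at 20.24 TPM in WT_5, with the other WT blastocysts at 25.93 to 27.84 TPM. *POLA2* was at 26.66 TPM in WT_1, against 17.25 to 18.64 TPM in the other 4. *POLE2* was at 11.36 TPM in WT_2, against 15.82 to 17.1 TPM. *RPA1* was at 165 TPM in WT_1, against 20.85 to 41.07 TPM. *DONSON* was at 16.24 TPM in WT_1, against 10.17 to 10.54 TPM, and at 10.14 TPM in TE_4, against 7.576 to 7.823 TPM in the other KO blastocysts. WT_1 accounts for 3 of the 6.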

How the results depend on the processing

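The number of replication genes called stayed at 0 under every alternative and with any blastocyst left out, by limma, while the number of all genes called, 3, ranged from 0 to 10. Without TE_4, 1 of them (*POLD3*) had an unadjusted p under 0.05, so the range over blastocysts left out was 0 to 1. The number with a higher mean in KO, 19, ranged from 12 (without TE_4) to 36 (without TE_3), was 32 without TE_1, and was 23 with size factors, 24 with array weights and 31 with means of TPM without the log. Their median log2 fold change ranged from −0.28 (without TE_4) to 0.12 (without TE_1), so its sign rests on single KO blastocysts. Signs of uncalled genes turned for *ORC6*, at 0.039 with size factors and 0.18 with array weights, for *MCM7*, at 0.052 with size factors, and for *TIPIN*, at 0.21 with array weights. With each blastocyst left out the log2 fold change spanned −0.23 to 0.17 for ORC6, −0.20 to 0.20 for GMNN, −0.15 to 0.32 for CDT1, −0.30 to 0.22 for MCM7, −0.10 to 0.51 for MCM3, −0.25 to 0.058 for PCNA, −0.038 to 0.17 for POLD2, −0.035 to 0.30 for FEN1, −0.028 to 0.36 for RPA3, −0.41 to 0.21 for TIPIN, −0.38 to 0.36 for RRM2, −0.55 to 0.38 for CDC6 and −0.34 to 0.092 for MCM2. No paired analysis was possible because the deposited titles number the blastocysts 1 to 9 without repeats and equal numbers in the column names are not described as pairs. The effect of depth on low genes could not be measured from TPM. With the same variance for both genotypes, 5 against 4 blastocysts left 13 of the 49 intervals open beyond 1 log2 unit.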

Other observations

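The pairs listed here were picked by hand with the gene at the higher level in TPM set first. That their order held across libraries thus follows in part from the choice, while their ratios varied. *ORC4* exceeded *ORC2* 9.62 to 26.8 times, *MCM7* exceeded *MCM3* 3.10 to 4.62 times and *POLD2* exceeded *POLD1*, the catalytic subunit, 1.54 to 3.18 times. *RFC3* and *PCNA* exceeded *RFC1* 2.79 to 14.9 and 5.99 to 21.01 times. *PRIM2* was 1.75 to 4.31 times as high as *PRIM1*. The widest ratio was that of *RPA3* to *RPA1*, 1.54 to 36.03, lowest in WT_1 and highest in WT_4. Each of these ratios was above 1 in 9 of 9 libraries, and their ranges in WT and KO overlapped. Other partners switched order between libraries. *FEN1* was above *LIG1* in 7 libraries and below it in 2, and the highest helicase activator was *GINS1* in 5 and *GINS2* in 4.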
